A study of Danio rerio with 24 samples.

Results

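The brains of 4-month-old adult zebrafish that had been exposed to 0.3 nM PCB126 as embryos were compared with the brains of same-age fish exposed as embryos to the solvent DMSO. The comparison takes 3 RNA sequencing libraries of 0.3 nM brain and 3 of DMSO brain, chosen by the exposure, dose and tissue in the labels, out of 24 libraries in the series. PCB126 is a polychlorinated biphenyl that acts as a dioxin-like agonist of the aryl hydrocarbon receptor (AHR). Exposure took place in dilute Danieu's embryo medium, and the fish then grew up in clean system water under 12 h of light and 12 h of darkness, the same medium, water and light cycle for both groups. The other libraries are 3 of adult brain after 1.2 nM, and whole embryos at 48 hours post-fertilization (hpf) and whole larvae at 5 days post-fertilization (dpf), also 3 per treatment. The sources used here do not give strain, genotype, sex, hour of sampling or whether a library pools several brains. The series text calls the libraries of a group biological replicates; nothing says from how many tanks or clutches they came, so p-values measure the spread between these libraries.

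The AHR is a transcription factor held in the cytoplasm by HSP90 and co-chaperones. On binding a planar aromatic ligand it moves to the nucleus, pairs with ARNT and switches on genes such as the cytochrome P450 1 family, which serve as a readout of ligand being present. The adult zebrafish brain is made up of neurons, radial glia that take on astrocyte roles, myelinating oligodendrocytes, microglia and vessels, and neurons depend on mitochondrial ATP for ion pumping and synaptic transmission.

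Total reads on genes ranged from 19498374 to 23022236 in DMSO brains and from 13097392 to 15911244 in 0.3 nM brains, so every DMSO library was the deeper. Levels are counts per 1000000 reads (CPM), with the library size adjusted by the trimmed mean of M values (TMM). Markers of brain were present in all 6 libraries: the neuronal gene ELAVL3 stood at 305, 322 and 251 CPM in DMSO and 394, 451 and 442 CPM in 0.3 nM brains, and the myelin gene mbpa at 11393, 8100.1 and 10622 against 6473, 5389.6 and 4983 CPM.

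Several libraries stood apart in genes of other tissues or of one end of the brain. DMSO replicate 3 held the most muscle transcripts, with a summed level over 51 muscle genes of 3946 CPM, against 712 and 573 CPM in the other DMSO brains and 482, 639 and 663 CPM in the 0.3 nM brains. In that library 39 cartilage and bone genes summed to 2998 CPM (296 to 849 in the other 5), 33 meningeal and fibroblast genes to 2460.2 CPM (467 to 895) and 16 pituitary genes to 576 CPM (209 to 249). Its level of ckma, the muscle creatine kinase, was 175 CPM against 5.69 to 17.2 CPM in the other 5, and of the growth hormone gene gh1 93.9 CPM against 1.92 to 7.04 CPM. The Hox genes of paralog groups 5 to 13, which are expressed in the hindbrain's posterior end and the spinal cord, summed to 1.28 CPM in 0.3 nM replicate 1 and to 47.3 and 66.1 CPM in replicates 2 and 3, against 68.6, 92.9 and 71.7 CPM in DMSO brains. DMSO replicate 2 carried photoreceptor genes at a sum of 331 CPM (51.7 to 119.8 in the other 5), inner ear genes at 646 CPM (at most 361 in the other 5) and the inner ear gene COCH at 116 CPM (1.36 to 22.1). The lowest DMSO sum was above the highest 0.3 nM sum in cartilage and bone (549 against 480 CPM) and in meninges and fibroblasts (690 against 605). It was also above it in inner ear (339 against 284), epidermis (499 against 424), liver (870 against 712), erythrocyte and lens genes. Muscle, pituitary, photoreceptor and pineal sums overlapped between the groups.

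**Figure D1:**
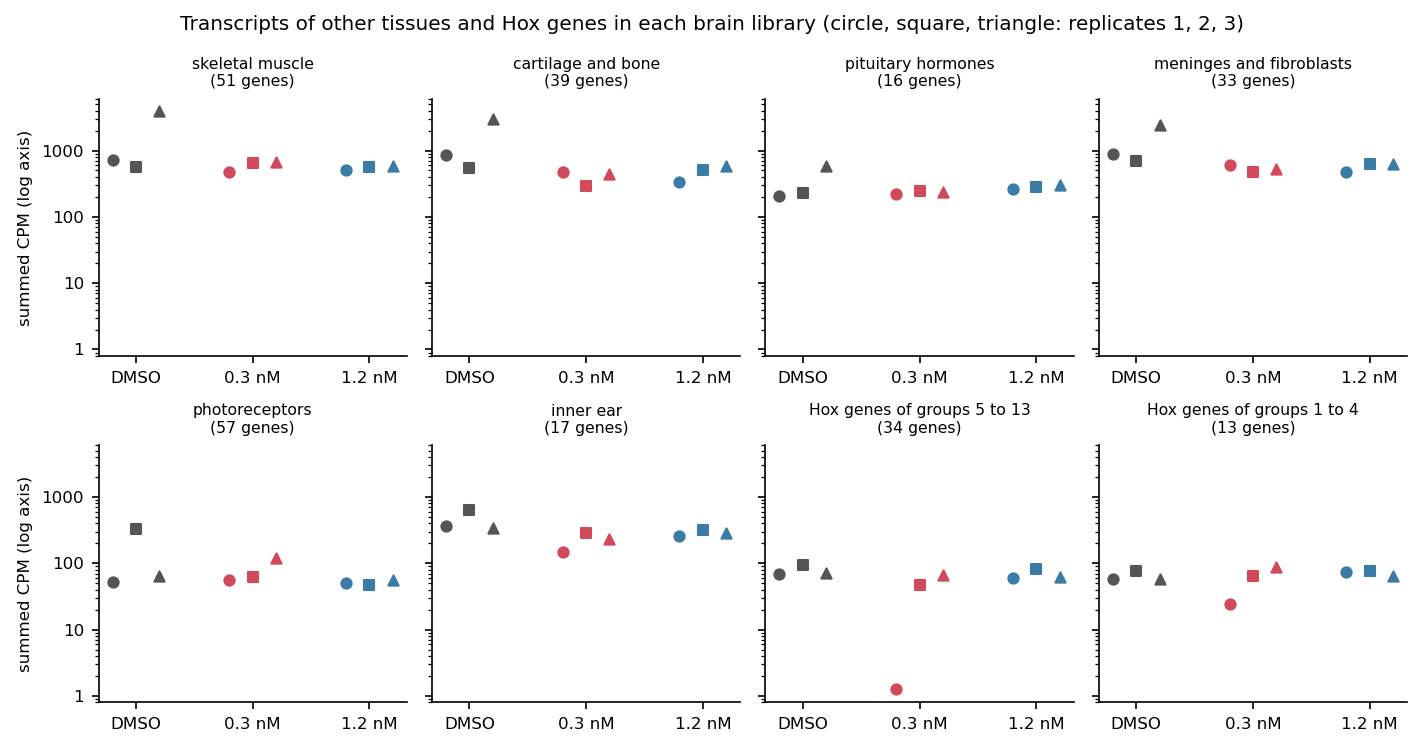
Summed CPM (log axis) of each marker list in every adult brain library by treatment; circles, squares and triangles are replicates 1, 2 and 3. DMSO replicate 3 is highest for muscle, cartilage, pituitary and meninges, and 0.3 nM replicate 1 is lowest for the Hox genes of groups 5 to 13, at 1.28 CPM.

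Embryonic exposure to 0.3 nM was followed in the adult brain by lower levels of genes for mitochondrial respiration, protein folding and glia, and by higher levels of genes for synaptic scaffolds, ion channels, protocadherins and chromatin. Of 19548 genes tested, 2683 (13.7%) were called, that is, had an adjusted p under 0.05 (the quasi-likelihood test of edgeR, adjusted across genes by the Benjamini-Hochberg method); 1529 (7.82%) were higher and 1154 (5.9%) lower. With library size alone in place of TMM the split was 1930 higher and 902 lower. Every exposed brain lay on 1 side of every DMSO brain in 32.6% of all genes and in 2660 of the 2683 called genes. Groups being apart therefore adds little to a call. For the 14 largest changes named per direction it was part of the rule of choice. The median log2 fold change over all genes was -0.02. Most changes were small, with a median size of 0.485 among called genes on the log2 scale. Bulk RNA was measured, so fewer cells of a type and less RNA per cell cannot be told apart.

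The number of calls depended on single libraries, and the test was therefore repeated with each of the 6 compared libraries left out. Without DMSO replicate 1, 2 and 3 it called 1427, 2853 and 1418 genes, and without 0.3 nM replicate 1, 2 and 3 it called 3057, 960 and 971. DMSO replicate 3 was the lowest of the DMSO brains in 83.6% of the genes called higher and in 39.9% of all genes tested, and the highest in 51.7% of those called lower and 33.7% of all; the part of that library's other tissue in these calls was not tested. Leaving out DMSO replicate 3 lowered the shares to 4.35% higher and 2.81% lower, and leaving out 0.3 nM replicate 1 raised them to 8.14% and 7.17%. In all 7 fits 685 genes were called with the same sign (3.5%), 446 higher and 239 lower. A named gene said below to have risen or fallen, or to have gone from one level to another, is one of these 685 unless a library is named with it. Where a list's count is followed by 6 numbers in brackets, these are its counts with DMSO replicates 1, 2 and 3 and then 0.3 nM replicates 1, 2 and 3 left out. Each list's count is to be read against the 7.82% of all genes called higher and the 5.9% called lower. The lists were chosen with earlier results of these data known, so a share above those of all genes is no independent support. A value in brackets after a gene is its log2 fold change, and one that follows it is the adjusted p.

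**Figure D2:**
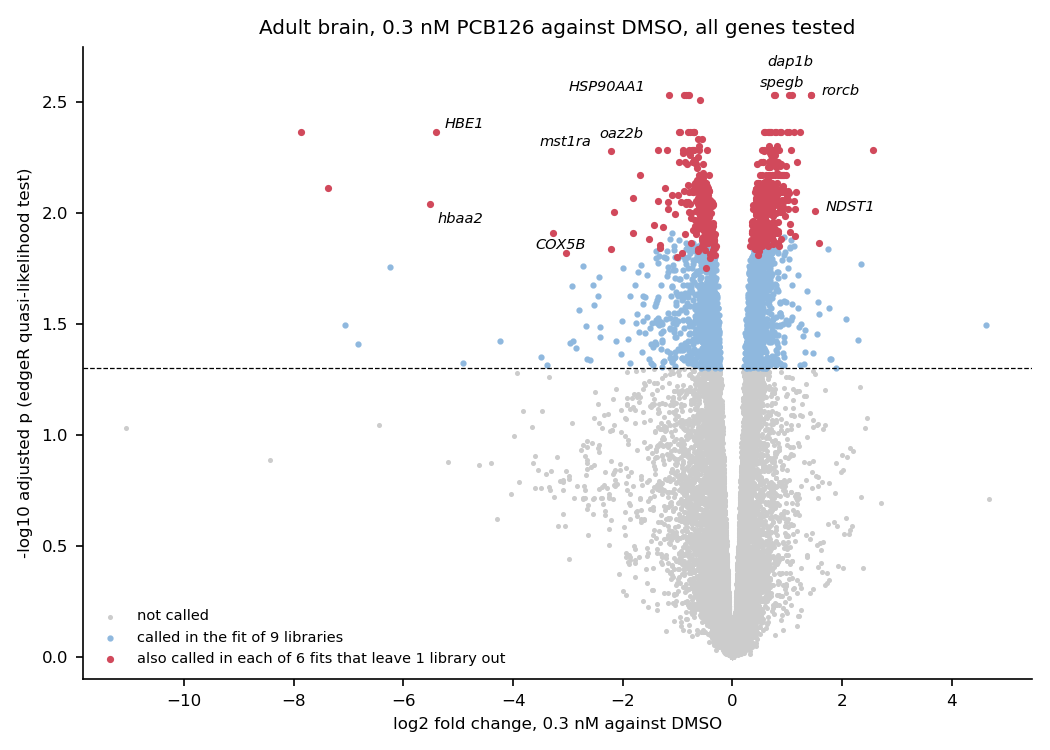
Each point is 1 of 19548 genes in adult brain, with the log2 fold change of 0.3 nM against DMSO on the x axis and -log10 of the adjusted p (edgeR quasi-likelihood test) on the y axis; the dashed line marks 0.05. Blue points are the other called genes and red points the 685 genes called in all 7 fits, among which hbaa2 lies at -5.52 and HBE1 at -5.40 on the x axis.

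Among genes called in all 7 fits whose mean log2 CPM was 1 or more, the deepest falls were in a pair of globin genes, which code for the oxygen carrier of red blood cells. The alpha globin gene hbaa2 (ENSDARG00000069735) had 223, 70 and 136 reads in DMSO brains and 2, 4 and 0 reads in 0.3 nM brains, or 10.1, 3.63 and 6.40 CPM against 0.128, 0.287 and 0 CPM (log2 fold change -5.52 with SE 0.86, adjusted p = 0.0091). The globin gene written HBE1 (ENSDARG00000069734) had 377, 152 and 238 reads against 2, 6 and 4 reads (log2 fold change -5.40 with SE 0.55, adjusted p = 0.0043). In both genes every 0.3 nM brain lay far below every DMSO brain. In the 1.2 nM brains the reads were 39, 86 and 122 for hbaa2 and 140, 211 and 251 for HBE1, levels that overlap those of DMSO.

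The other globin genes tested were not called. The most abundant one, also written HBE1 (ENSDARG00000089087), stood at 474, 283 and 286 CPM in DMSO and 266, 177 and 175 CPM in 0.3 nM brains (log2 fold change -0.76 with SE 0.31, adjusted p = 0.146), and hbaa1 at 165, 96.2 and 99.6 against 101, 60.6 and 63.5 CPM (log2 fold change -0.68 with SE 0.34, adjusted p = 0.227). The summed level of 27 erythrocyte genes was 1226, 809.6 and 813 CPM in DMSO and 747, 634 and 638 CPM in 0.3 nM brains; its part in the fall of the globin pair was not tested. Of 17 such genes tested, 6 were lower (4, 7, 5, 4, 3 and 4) and 1 higher, the third fall in all 7 fits being nt5c2l1 at -1.11. The exposed brains were all below the DMSO brains for the abundant HBE1 and overlapped them for hbaa1. Since globin genes are alike in sequence and ambiguous reads were left out of the counts, the split between them is uncertain. For the pair near 0 in the 0.3 nM brains, the strain, clutch and tank of the fish, which the labels do not give, cannot be told apart from exposure.

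A small second cytochrome c oxidase gene fell with the main one. The low-level gene written COX5B (ENSDARG00000068738) went from 3.26, 2.39 and 7.53 CPM in DMSO to 0.511, 1.15 and 1.19 CPM in 0.3 nM brains (log2 fold change -2.22 with SE 0.46, adjusted p = 0.0146), while the abundant gene of the same symbol (ENSDARG00000015978) went from 195, 201 and 203 CPM to 156, 129.5 and 139.7 CPM (log2 fold change -0.50 with SE 0.08, adjusted p = 0.00729). In both genes the highest exposed brain was below the lowest DMSO brain.

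Polyamine turnover was represented by a pair of falling genes. The ornithine decarboxylase antizyme gene oaz2b, whose product restrains polyamine synthesis and uptake, was at 73.0, 59.2 and 66.7 CPM in DMSO and 31.3, 18.1 and 27.8 CPM in 0.3 nM brains (log2 fold change -1.36 with SE 0.17, adjusted p = 0.00519). The spermine oxidase gene SMOX was at 244, 249.5 and 265 against 148, 138 and 149.7 CPM (log2 fold change -0.80 with SE 0.08, adjusted p = 0.00293). In neither gene did the groups overlap, and the 1.2 nM brains lay between them for both, at 39.6, 45.8 and 43.8 CPM and 197, 185 and 214 CPM. These genes were set together after their values were seen.

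Other falls were in receptor, transport and signalling genes. The gene mst1ra, for a receptor tyrosine kinase of the MET family, was at 2.77, 4.72 and 4.42 CPM in DMSO and 0.511, 0.934 and 1.11 CPM in 0.3 nM brains, and at 4.17, 5.24 and 4.25 CPM after 1.2 nM (0.3 nM log2 fold change -2.22 with SE 0.31, adjusted p = 0.00521). The kelch protein gene IVNS1ABP went from 48.6, 51.6 and 40.6 CPM to 21.6, 17.8 and 22.2 CPM (log2 fold change -1.19 with SE 0.16, adjusted p = 0.00519). For both, all exposed brains at 0.3 nM were below all DMSO brains. The organic anion transporter gene SLC22A8 fell by 1.36 on the log2 scale, the vacuolar ATPase subunit gene atp6v0e1 by 1.26, the calcium-binding protein gene cabp5a by 1.31, the secreted lectin gene clec11a by 1.22 and ppdpfa by 1.44. Adjusted p-values of these 5 ran from 0.00766 to 0.0138. SPART, for a protein of lipid droplets and mitochondria, was at 31.9, 40.2 and 46.0 CPM in DMSO, 20.9, 18.6 and 21.6 CPM at 0.3 nM and 40.6, 40.7 and 40.3 CPM at 1.2 nM (0.3 nM log2 fold change -0.95 with SE 0.12, adjusted p = 0.0043).

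Among the largest rises were genes of RNA processing, light sensing and kinase function beside those of synapses. The gene srrm3, for a splicing regulator of neuronal microexons in mammals, went from 10.5, 12.3 and 10.1 CPM in DMSO to 19.1, 24.1 and 26.0 CPM in 0.3 nM brains (log2 fold change 1.07 with SE 0.15, adjusted p = 0.00519). The deep-brain opsin gene valopa went from 8.25, 9.60 and 5.88 CPM to 14.2, 17.8 and 16.1 CPM (log2 fold change 1.02 with SE 0.17, adjusted p = 0.00791), and spegb, related to a kinase of striated muscle, from 79.2, 89.5 and 67.6 CPM to 155, 175 and 151 CPM (log2 fold change 1.02 with SE 0.11, adjusted p = 0.00293). In all 3 genes the lowest 0.3 nM brain was above the highest DMSO brain. For dap1b, related to the autophagy regulator DAP1, the values were 15.0, 15.6 and 13.9 CPM in DMSO, 33.2, 28.8 and 32.7 CPM at 0.3 nM and 9.77, 12.7 and 10.1 CPM at 1.2 nM (0.3 nM log2 fold change 1.09 with SE 0.11, adjusted p = 0.00293). The rise of dap1b at 0.3 nM was set against a 1.2 nM level that lay below DMSO (log2 fold change -0.45, adjusted p = 0.0392).

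**Figure D3:**
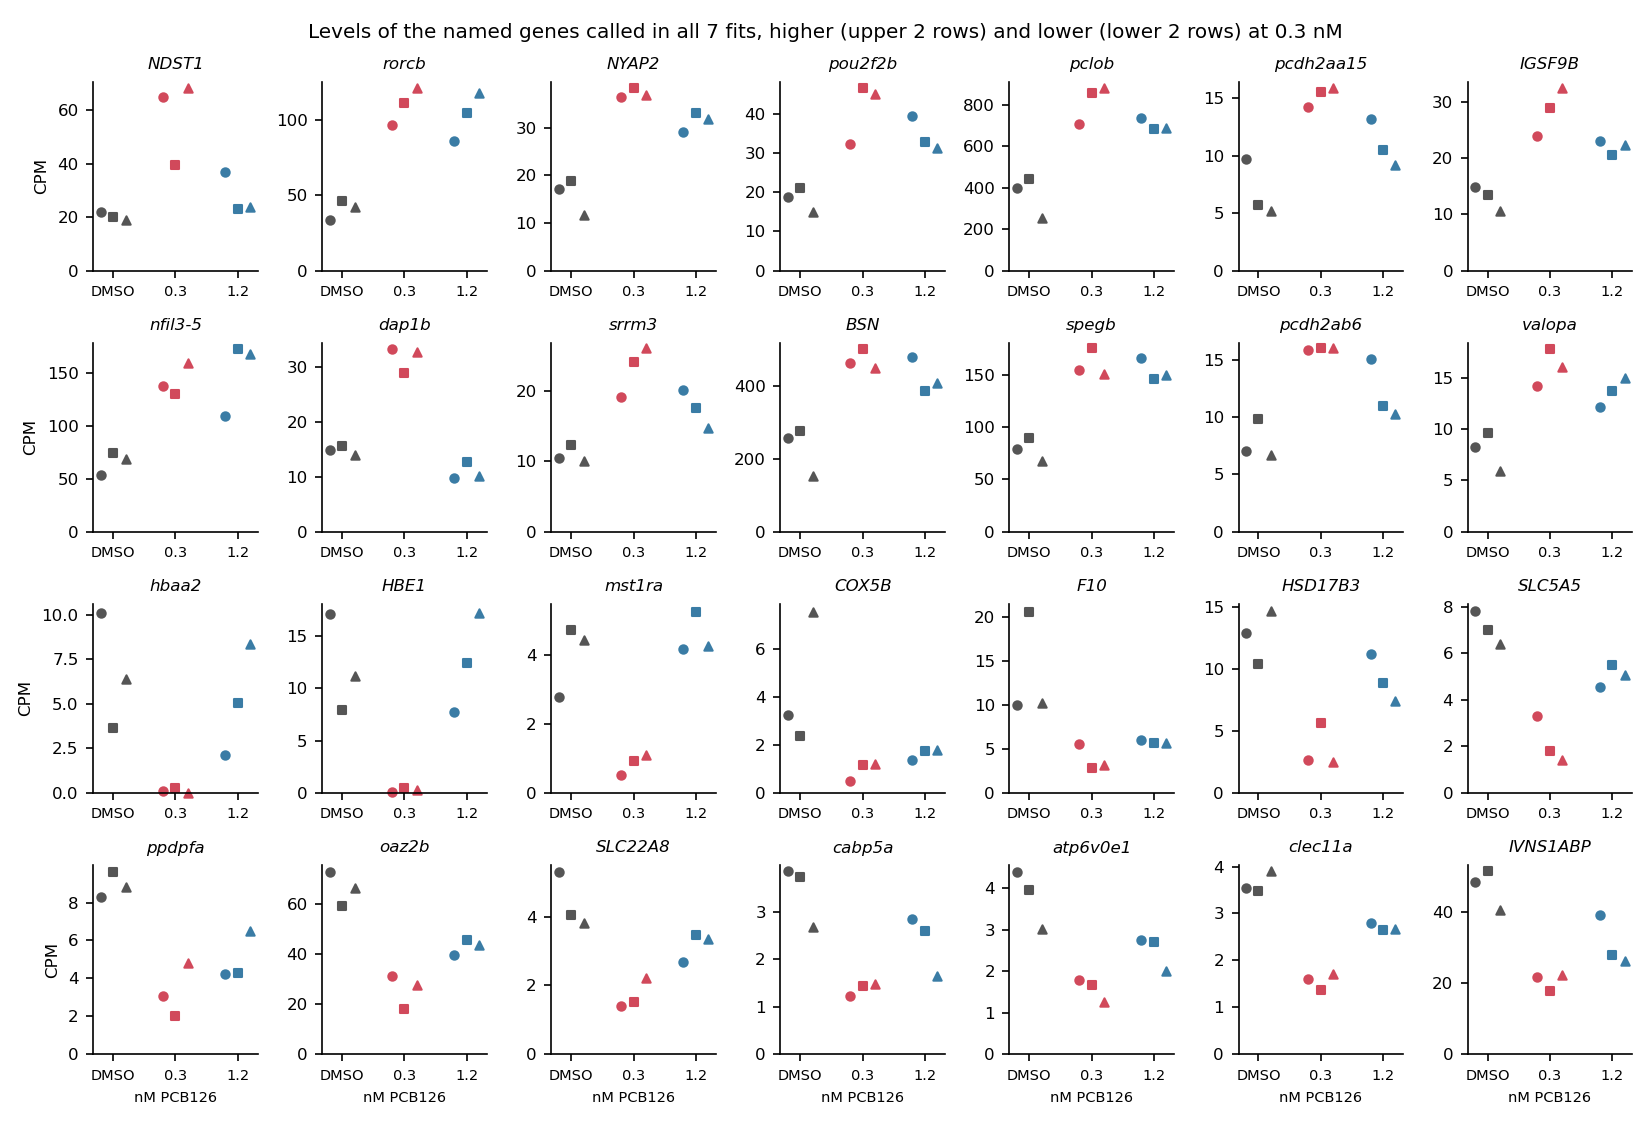
CPM of 28 named genes in each adult brain library (linear axes from 0; grey DMSO, red 0.3 nM, blue 1.2 nM; circles, squares and triangles are replicates 1, 2 and 3). Red points lie apart from grey points in every panel because separate groups were part of the rule that chose these genes. For dap1b, hbaa2, HBE1, mst1ra and HSD17B3 some or all blue points reach or pass the DMSO side.

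Nuclear genes of oxidative phosphorylation, the chain of 4 respiratory complexes and the ATP synthase in the inner mitochondrial membrane, were lower in all 5 complexes. Of genes tested, 32 of 39 were called lower in complex I (22, 31, 22, 34, 12 and 14), 4 of 5 in complex II (2, 2, 0, 4, 0 and 0), 6 of 9 in complex III (5, 7, 4, 9, 2 and 2), 14 of 18 in complex IV (12, 14, 12, 15, 11 and 12) and 17 of 18 in the ATP synthase (13, 17, 13, 17, 10 and 11), with none higher. Median log2 fold changes were -0.49, -0.39, -0.46, -0.59 and -0.51, against -0.02 over all genes tested. With 1 library left out, at least 12 genes were called in complex I, where 10 genes were called in all 7 fits, and at least 11 in complex IV, where 11 were; complex II had none without DMSO replicate 3, 0.3 nM replicate 2 or 0.3 nM replicate 3.

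Single subunits showed the size of the shift. COX7A2 of complex IV went from 80.02, 81.2 and 84.5 CPM in DMSO to 51.3, 43.0 and 39.1 CPM in 0.3 nM brains (log2 fold change -0.88 with SE 0.09, adjusted p = 0.00293), and cox6c from 111, 115 and 127 CPM to 81.6, 67.4 and 79.8 CPM (log2 fold change -0.63 with SE 0.09, adjusted p = 0.00558). Complex I's NDUFA6 went from 45.5, 44.9 and 55.0 CPM to 30.8, 26.4 and 30.6 CPM (log2 fold change -0.73 with SE 0.11, adjusted p = 0.00588). The groups were apart in all 3. The ATP synthase subunit gene atp5mf changed by -0.63 (adjusted p = 0.0046), atp5if1a, whose product inhibits reverse ATP hydrolysis, by -0.78 (0.00544), and UQCR10 and UQCRQ of complex III by -0.53 (0.00797) and -0.55 (0.011). The catalytic flavoprotein gene of complex II, SDHA, was not called (377, 383 and 361 CPM in DMSO and 322, 313 and 333 CPM at 0.3 nM, adjusted p = 0.0826), nor was NDUFV1 of complex I (-0.17, adjusted p = 0.146).

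The 13 subunits that mitochondrial DNA encodes had no call by edgeR, with a median of -0.22; 1 was higher and 3 were lower at an unadjusted p under 0.05, and DESeq2 called 0 higher and 0 lower. MT-CO1 stood at 14840.0, 16919 and 16784 CPM in DMSO and 15888, 11513 and 12021 CPM in 0.3 nM brains (adjusted p = 0.151). For this gene 0.3 nM replicate 1 lay inside the DMSO range and replicates 2 and 3 below it, and without replicate 1 its adjusted p was 0.0248. Mitochondrial ribosomal protein genes had 14 of 73 lower (3, 10, 3, 20, 2 and 3) and a median of -0.28; MRPS18A (-0.47) and MRPL24 (-0.47) were lower in all 7 fits.

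**Figure D4:**
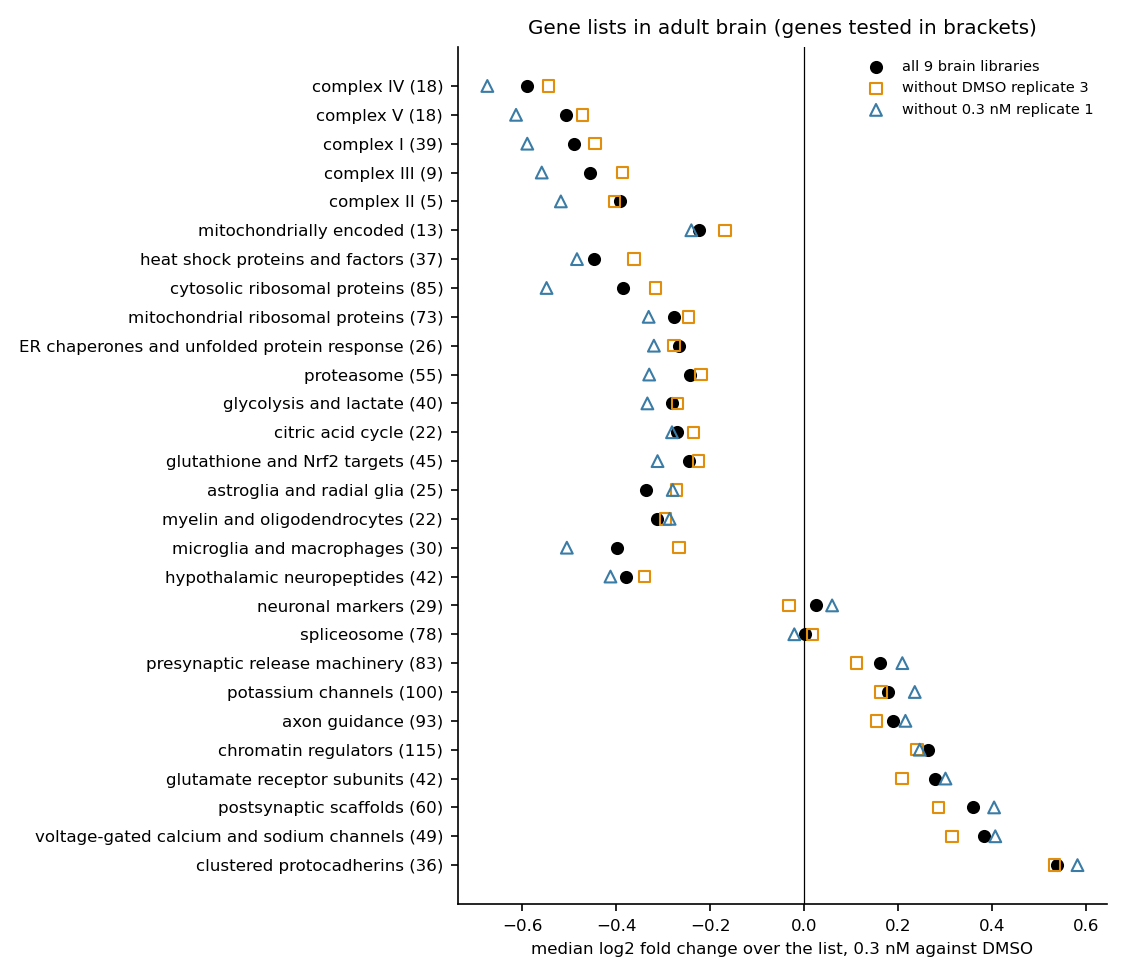
Median log2 fold change (0.3 nM against DMSO) of each of 28 gene lists on the x axis, from the fit of all 9 brain libraries (black), without DMSO replicate 3 (orange squares) and without 0.3 nM replicate 1 (blue triangles). Of the lists drawn, complex IV has the lowest median (-0.59, and -0.67 without 0.3 nM replicate 1) and the clustered protocadherins the highest (0.54, and 0.58), and those of neuronal markers and the spliceosome lie near 0 and change sign.

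Fuel-handling genes upstream of the respiratory chain were mostly lower where called. In glycolysis and lactate handling 11 of 40 genes were lower (18 by DESeq2; 3, 12, 7, 10, 4 and 5) and none was higher, though 1 was by DESeq2, 1 without 0.3 nM replicate 1 and 1 with library size alone; 9 of 22 were lower in the citric acid cycle (5, 8, 6, 10, 4 and 3), with medians of -0.28 and -0.27. The phosphoglycerate mutase gene pgam1a went from 61.6, 66.7 and 70.7 CPM to 46.0, 46.3 and 43.2 CPM (log2 fold change -0.55 with SE 0.07, adjusted p = 0.0046). SUCLG1, for a subunit of succinyl-CoA ligase, went from 71.0, 69.8 and 81.4 CPM to 54.1, 51.6 and 47.7 CPM (log2 fold change -0.53 with SE 0.08, adjusted p = 0.0067), and MDH2, for mitochondrial malate dehydrogenase, from 291, 283 and 297 CPM to 222, 204 and 228 CPM (log2 fold change -0.41 with SE 0.07, adjusted p = 0.0091). Exposed and DMSO brains were apart in these 3. TPI1 (-0.48), the pyruvate dehydrogenase kinase gene PDK2 (-0.62) and the pyruvate dehydrogenase gene pdha1a (-0.34) fell too. The pyruvate kinase gene PKM (-0.17, adjusted p = 0.247) and the citrate synthase gene CS (-0.16, 0.159) were not called.

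Glutathione and Nrf2-target genes, which buffer reactive oxygen species and detoxify electrophiles, had 13 of 45 lower (11, 13, 10, 15, 8 and 9) and none higher (1 without DMSO replicate 2), with a median of -0.25. NFE2L2, which encodes Nrf2 itself, went from 45.1, 42.9 and 47.3 CPM in DMSO to 35.2, 32.3 and 33.0 CPM in 0.3 nM brains (log2 fold change -0.43 with SE 0.07, adjusted p = 0.00791). The lipid peroxidase gene GPX4 went from 104, 92.4 and 105 CPM to 76.2, 65.5 and 70.8 CPM (log2 fold change -0.51 with SE 0.08, adjusted p = 0.00729). All 3 exposed brains were below all 3 DMSO brains in both genes. The superoxide dismutase gene SOD1 (-0.46) and the thioredoxin gene TXN (-0.56) fell as well, and the glutathione transferase genes gstr (-0.05, adjusted p = 0.805) and gstp1.2 (-0.20, 0.473) were not called.

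Protein folding and turnover genes were called lower, and none was called higher with all libraries (1 endoplasmic reticulum gene was without DMSO replicate 2). Of 37 heat shock genes 17 were lower (10, 15, 14, 17, 6 and 8; median -0.45), of 26 genes of endoplasmic reticulum folding 8 (5, 8, 5, 8, 5 and 2; -0.27), and of 55 proteasome genes 17 (7, 15, 7, 23, 6 and 4; -0.24). The stress-inducible chaperone gene HSP90AA1 (ENSDARG00000024746) went from 243, 208 and 219 CPM in DMSO to 114, 101 and 85.4 CPM in 0.3 nM brains (log2 fold change -1.16 with SE 0.12, adjusted p = 0.00293), and the 1.2 nM brains lay between the groups at 145, 177 and 141 CPM. The constitutive HSP70 family gene HSPA8 went from 112, 129.6 and 120.1 CPM to 81.2, 68.7 and 77.7 CPM (log2 fold change -0.67 with SE 0.10, adjusted p = 0.00599). Neither gene's groups overlapped. The mitochondrial chaperonin genes HSPD1 (-0.46) and HSPE1 (-0.54), the reticulum chaperone genes HSP90B1 (-0.45) and calr3a (-0.50) and the proteasome subunit genes PSMC5 (-0.46) and PSMB4 (-0.49) fell. The abundant constitutive HSP90 gene HSP90AB1 was not called (-0.20, adjusted p = 0.151).

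The calls among cytosolic ribosomal protein genes rested on single libraries. Of 85 genes 27 were lower (62 by DESeq2), with a median of -0.39, but the count was 78 without 0.3 nM replicate 1 and 0 and 1 without replicates 2 and 3, and it was 4, 39 and 4 without DMSO replicates 1, 2 and 3. Their median levels relative to the DMSO mean, on the log2 scale with 0.5 CPM added, were -0.11, -0.58 and -0.50 in the 0.3 nM brains and -0.01, -0.12 and 0.13 in the DMSO brains. Replicate 1 was thus inside the DMSO range and replicates 2 and 3 below it. RPLP0 shows this in its levels of 754, 487 and 508 CPM at 0.3 nM against 741, 684 and 825 CPM in DMSO (adjusted p = 0.136, and 0.00819 without that replicate). At 1.2 nM, 71 of these genes were lower than DMSO. Among translation factors, the initiation scaffold gene EIF4G3 rose from 72.9, 73.8 and 53.1 CPM to 100.4, 103 and 101 CPM (log2 fold change 0.61 with SE 0.11, adjusted p = 0.00957).

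Markers of glia were lower where they were called. Astroglia and radial glia had 7 of 25 genes lower (5, 9, 4, 7, 3 and 5), with a median of -0.34. The gap junction gene GJA1 went from 1065, 1018 and 1096 CPM in DMSO to 628, 630.4 and 669 CPM in 0.3 nM brains (log2 fold change -0.72 with SE 0.09, adjusted p = 0.0043), and GFAP, for the glial intermediate filament, from 209, 192 and 214 CPM to 104, 147 and 132 CPM (log2 fold change -0.69 with SE 0.13, adjusted p = 0.0107). The bicarbonate transporter gene SLC4A4 went from 539, 504 and 470.4 CPM to 329, 342 and 371 CPM (log2 fold change -0.54 with SE 0.08, adjusted p = 0.00655). All 3 genes had separate groups. The abundant glial genes GLUL and SLC1A2, for glutamine synthetase and a glutamate transporter, were not called (-0.18 and -0.07, adjusted p = 0.313 and 0.821). At 1.2 nM GJA1 stood at 784, 928 and 803 CPM and GFAP at 147, 171 and 193 CPM.

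Myelin and oligodendrocyte genes had 5 of 22 lower (1, 7, 1, 3, 1 and 1), with a median of -0.31. The myelin basic protein gene mbpa, given above, had a log2 fold change of -0.84 (SE 0.15, adjusted p = 0.0091) and was called in all 7 fits. DMSO brains differed widely among themselves in these genes: plp1b was at 2167, 1026 and 1836 CPM in DMSO and 1140.0, 855 and 965 CPM at 0.3 nM (adjusted p = 0.0951), with DMSO replicate 2 inside the exposed range. Microglia and macrophage genes had 6 of 30 lower (5, 7, 2, 9, 2 and 2; median -0.40). The mannose receptor gene mrc1b, which in zebrafish also marks lymphatic and venous endothelium, went from 33.6, 30.3 and 34.9 CPM to 21.9, 16.4 and 18.8 CPM (log2 fold change -0.79 with SE 0.11, adjusted p = 0.00537), and the colony-stimulating factor receptor gene csf1ra from 38.8, 35.1 and 41.5 CPM to 27.8, 25.8 and 28.02 CPM (log2 fold change -0.50 with SE 0.09, adjusted p = 0.00831). Neither gene's groups overlapped. Endothelial and pericyte genes had 2 of 25 lower (0, 1, 1, 2, 0 and 1), or 8% against 5.9% of all genes, with the receptor gene kdrl at -0.12 (adjusted p = 0.482).

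General neuronal markers moved little as a list, with 2 of 29 higher (2, 3, 2, 4, 2 and 2), 1 lower (1, 1, 1, 1, 1 and 0) and a median of 0.03. These shares, 6.9% higher and 3.45% lower, were below the 7.82% and 5.9% of all genes. The RNA-binding protein gene ELAVL3, given above, rose (log2 fold change 0.55 with SE 0.10, adjusted p = 0.00903), and the dendritic microtubule protein gene map2 went from 161, 164 and 118 CPM to 219, 258.004 and 212 CPM (log2 fold change 0.64 with SE 0.13, adjusted p = 0.0127). The groups of both were apart. The 1 gene called lower was UCHL1, and its call was lost without 0.3 nM replicate 3 (edgeR adjusted p = 0.059). Over the list, 16 genes had a positive and 13 a negative log2 fold change. SNAP25, for the abundant synaptic fusion protein, was not called (2994, 3404 and 2897 CPM in DMSO, 2654, 2579 and 2972 CPM at 0.3 nM, adjusted p = 0.247), nor was the GABA-synthesizing enzyme gene GAD2 (0.11, 0.532).

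**Figure D5:**
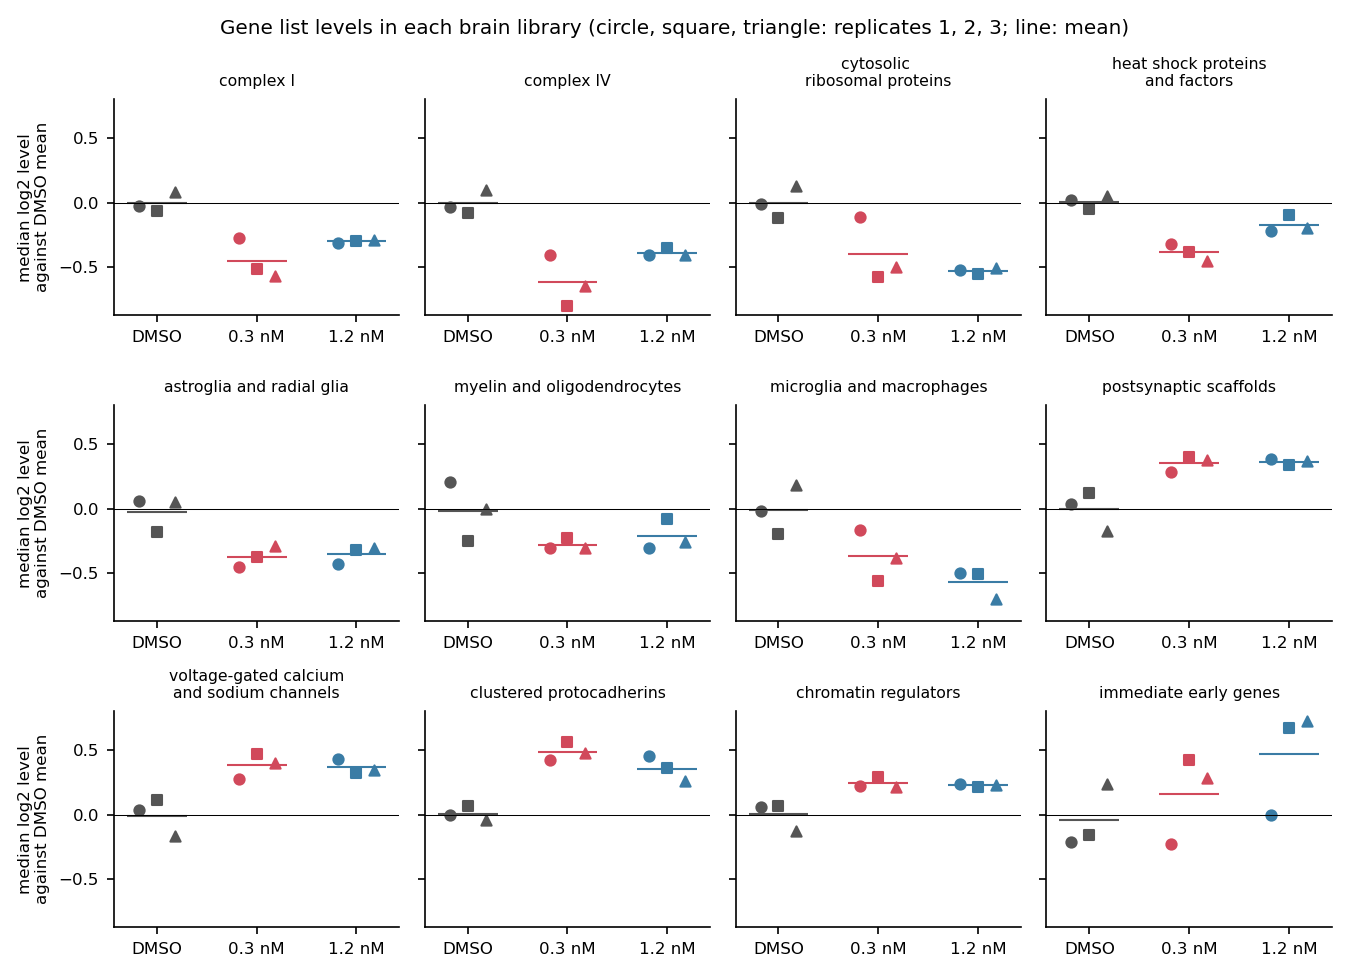
Median log2 level of 12 gene lists in each adult brain library against the mean of the DMSO brains (y axis, 0.5 CPM added), by treatment; the line is the group mean. The 0.3 nM points lie below DMSO for complexes I and IV and heat shock genes and above it for postsynaptic scaffolds, channels, protocadherins and chromatin regulators, while for ribosomal proteins replicate 1 lies inside the DMSO range at -0.11.

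Genes of synaptic scaffolds were called higher, while the abundant release gene SNAP25 was not called. Of 60 postsynaptic scaffold and adhesion genes 29 were higher (22, 33, 20, 32, 14 and 17) and none lower, with a median of 0.36. The density scaffold gene shank1 went from 40.9, 39.0 and 27.4 CPM in DMSO to 60.1, 70.6 and 69.5 CPM in 0.3 nM brains (log2 fold change 0.90 with SE 0.13, adjusted p = 0.0067). The synapse organizer gene LRRTM4 went from 23.7, 21.9 and 19.1 CPM to 33.5, 41.1 and 38.5 CPM (log2 fold change 0.81 with SE 0.11, adjusted p = 0.00498), and igsf9ba, a relative of the inhibitory-synapse adhesion gene IGSF9B, from 127, 115 and 96.8 CPM to 185, 207 and 189 CPM (log2 fold change 0.78 with SE 0.10, adjusted p = 0.0043). In each of these 3 genes DMSO replicate 3 was the lowest library and the groups were apart. The abundant kinase gene CAMK2B was not called (0.23, adjusted p = 0.132).

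On the presynaptic side 22 of 83 genes were higher (13, 26, 15, 24, 8 and 7) and 2 lower (0, 0, 1, 2, 0 and 0), with a median of 0.16. The rises included the giant active-zone scaffolds: BSN, which encodes bassoon, went from 258.011, 276 and 154 CPM to 465, 502 and 451 CPM (log2 fold change 1.04 with SE 0.19, adjusted p = 0.0121), and PCLO, one of the piccolo genes, from 219, 255 and 161 CPM to 401, 407 and 389.8 CPM (log2 fold change 0.92 with SE 0.14, adjusted p = 0.00756). The calcium sensor gene SYT7 went from 48.4, 48.0 and 33.3 CPM to 78.3, 85.9 and 72.1 CPM (log2 fold change 0.87 with SE 0.13, adjusted p = 0.0067). The groups were separate in all of them. RIMBP2, which links channels to release sites, rose by 0.60 on the log2 scale.

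Transmitter receptor genes were higher where called with all libraries. Glutamate receptor subunits had 13 of 42 higher (6, 18, 6, 15, 1 and 4; median 0.28), and GABA and glycine signalling had 8 of 40 higher (5, 9, 4, 8, 3 and 2; 0.10). In the latter 1 gene was lower without DMSO replicate 3, by DESeq2 and with upper quartile scaling. The summed level of the GABA and glycine list was 6435, 6525 and 5395 CPM in DMSO brains. In 0.3 nM brains it was 6071, 6193 and 6098 CPM, inside the DMSO range, with only DMSO replicate 3 below the exposed brains. The NMDA receptor subunit gene GRIN2A went from 129, 140.5 and 99.6 CPM to 175, 181 and 184 CPM (log2 fold change 0.55 with SE 0.11, adjusted p = 0.0141). The GABA-A receptor subunit gene gabrb4 went from 43.9, 47.1 and 33.6 CPM to 59.5, 75.3 and 64.1 CPM (log2 fold change 0.68 with SE 0.13, adjusted p = 0.00994). Both had separate groups. The obligatory NMDA receptor subunit, written GRIN1 for a pair of genes, was not called at 0.12 (ENSDARG00000027828, adjusted p = 0.319) and 0.19 (ENSDARG00000025728, 0.207). Glutamate receptor calls dropped to 1 without 0.3 nM replicate 2.

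Voltage-gated channels set the excitability of neurons. Calcium and sodium channel genes had 21 of 49 higher (14, 22, 14, 19, 11 and 12), none lower (2 by DESeq2) and a median of 0.38. The L-type calcium channel gene CACNA1C went from 103, 105 and 73.8 CPM in DMSO to 149, 161 and 160.0 CPM in 0.3 nM brains (log2 fold change 0.74 with SE 0.12, adjusted p = 0.00746), and cacna1da, of the same type, from 88.5, 100.4 and 78.0 CPM to 131, 132 and 144 CPM (log2 fold change 0.61 with SE 0.09, adjusted p = 0.0067). The pacemaker channel gene HCN4 went from 15.3, 14.6 and 10.4 CPM to 21.9, 25.1 and 24.0 CPM (log2 fold change 0.82 with SE 0.14, adjusted p = 0.00802). The groups were apart in each. The calcium channel beta subunit gene CACNB4 (0.67) rose too. The sodium channel genes written SCN8A were not called, at 0.23 (ENSDARG00000005775, adjusted p = 0.089) and 0.40 (ENSDARG00000018032, 0.0585). Of 100 potassium channel genes 17 were higher (10, 21, 8, 21, 8 and 7) and 1 lower (0, 1, 1, 1, 0 and 1). KCND3, for an A-type channel, went from 46.9, 44.2 and 31.2 CPM to 64.3, 72.4 and 72.3 CPM (log2 fold change 0.77 with SE 0.13, adjusted p = 0.00797), and the calcium-activated channel genes kcnn1a (0.52) and KCNMA1 (0.48) rose.

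Clustered protocadherins, cell-surface proteins whose combinations give neurons distinct identities, had the highest median of the lists, at 0.54. Of 36 tested 21 were higher (9, 18, 10, 21, 7 and 10) and none lower. The member pcdh1g31 went from 35.7, 34.3 and 35.2 CPM to 57.3, 51.2 and 56.0 CPM (log2 fold change 0.65 with SE 0.08, adjusted p = 0.0043), pcdh1g32 from 10.9, 13.8 and 12.8 CPM to 20.1, 25.0 and 25.5 CPM (log2 fold change 0.91 with SE 0.14, adjusted p = 0.0067) and pcdh2ab6 from 7.03, 9.86 and 6.68 CPM to 15.8, 16.02 and 16.01 CPM (log2 fold change 1.02 with SE 0.17, adjusted p = 0.00813). No exposed brain was inside the DMSO range for these members. The gene pcdh2g28 was not called (0.10, adjusted p = 0.54). Cluster members are alike in sequence, and ambiguous reads were left out of the counts, so single members are uncertain. The non-clustered pcdh11 went from 46.2, 49.7 and 35.7 CPM to 69.3, 74.8 and 76.2 CPM (log2 fold change 0.74 with SE 0.11, adjusted p = 0.00588).

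Other adhesion and guidance genes were mostly higher where called. Adhesion G protein-coupled receptors had 8 of 26 higher (5, 8, 6, 7, 4 and 3) and 1 lower (1, 1, 1, 2, 0 and 1), axon guidance genes 27 of 93 higher (18, 29, 15, 25, 9 and 9) and 2 lower (0, 3, 1, 1, 0 and 0), and ankyrins, spectrins and giant cytoskeletal genes 12 of 30 higher (8, 11, 10, 14, 3 and 4) and 1 lower (1, 2, 1, 1, 0 and 0). The latrophilin gene ADGRL1 went from 51.0, 53.0 and 37.5 CPM to 71.7, 87.5 and 83.5 CPM (log2 fold change 0.78 with SE 0.12, adjusted p = 0.00778). ANK3, for the ankyrin that organizes the axon initial segment, went from 411, 435 and 332 CPM to 595, 640.3 and 603 CPM (log2 fold change 0.64 with SE 0.10, adjusted p = 0.0069). The semaphorin receptor gene PLXNA1 went from 144, 161 and 98.8 CPM to 213, 249 and 239.6 CPM (log2 fold change 0.79 with SE 0.15, adjusted p = 0.012). Each had separate groups, with DMSO replicate 3 lowest. The receptor genes adgrb2 (0.62), adgra1a (0.58) and ephb6 (0.79) and the semaphorin gene SEMA4B (0.45) rose as well.

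Chromatin regulators had 48 of 115 genes higher (44, 51, 39, 45, 31 and 27) and 1 lower (1, 0, 1, 1, 0 and 0), with a median of 0.26. Writers of histone H3 lysine 4 methylation were among them: setd1a went from 36.2, 35.5 and 26.6 CPM in DMSO to 59.5, 58.9 and 63.8 CPM in 0.3 nM brains (log2 fold change 0.89 with SE 0.11, adjusted p = 0.0043) and kmt2bb from 120.2, 133 and 106 CPM to 190.1, 194 and 187 CPM (log2 fold change 0.67 with SE 0.09, adjusted p = 0.00498). The H3 lysine 27 demethylase gene kdm6bb went from 69.5, 65.7 and 62.0 CPM to 95.6, 103 and 95.3 CPM (log2 fold change 0.58 with SE 0.07, adjusted p = 0.0043). Groups did not overlap in these 3. The DNA demethylation gene TET2 (0.53) rose too, and the remodeller genes chd4b (0.18, adjusted p = 0.124) and CHD5 (0.26, 0.145) were not called.

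Spliceosome genes had 8 of 78 higher (4, 5, 4, 9, 3 and 6) and 1 lower (0, 1, 0, 4, 0 and 0). The share higher, 10.3%, was near the 7.82% of all genes. Their median of 0.00 changed sign to -0.02 with upper quartile scaling. The splicing coactivator gene srrm1 went from 35.2, 39.6 and 29.6 CPM to 65.6, 62.7 and 55.2 CPM (log2 fold change 0.81 with SE 0.12, adjusted p = 0.00599), with separate groups. The RNA-binding protein genes HNRNPM (0.43) and hnrnpa0a (0.47) rose, and the core splicing factor genes SF3B1 (0.22, adjusted p = 0.162) and PRPF8 (0.07, 0.647) were not called.

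Insulin and insulin-like growth factor (IGF) signalling had calls in both directions. In a list of 54 genes 10 were higher (16 by DESeq2; 4, 14, 4, 9, 4 and 3) and 5 lower (3, 6, 4, 5, 5 and 3). The ligand gene igf2b went from 30.5, 21.3 and 29.0 CPM in DMSO to 17.4, 13.6 and 16.5 CPM in 0.3 nM brains (log2 fold change -0.76 with SE 0.14, adjusted p = 0.00994), and the binding protein gene igfbp6b from 37.9, 37.7 and 34.9 CPM to 27.1, 28.7 and 26.8 CPM (log2 fold change -0.42 with SE 0.08, adjusted p = 0.00957). The receptor gene IGF1R (ENSDARG00000034434) went from 62.2, 67.02 and 51.0 CPM to 84.0, 95.9 and 89.8 CPM (log2 fold change 0.58 with SE 0.11, adjusted p = 0.00936). The groups of these genes were apart. The adaptor gene IRS1 rose (0.45, adjusted p = 0.00857) and the kinase gene PIK3CB fell (-0.34, 0.014), while the regulatory subunit genes pik3r2 (-0.03, 0.827) and PIK3R1 (-0.05, 0.68) were not called.

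In the thyroid hormone axis 3 of 18 genes were higher (1, 3, 2, 2, 1 and 1) and 2 lower (1, 2, 1, 2, 2 and 1). The nuclear thyroid receptor gene THRA went from 14.2, 12.4 and 11.5 CPM in DMSO to 20.3, 20.4 and 22.5 CPM in 0.3 nM brains (log2 fold change 0.73 with SE 0.10, adjusted p = 0.00521), and the iodide transporter gene SLC5A5 from 7.80, 7.01 and 6.40 CPM to 3.32, 1.80 and 1.41 CPM. In both the groups were apart. The releasing hormone gene TRH was not called (0.01, adjusted p = 0.979). Steroid signalling and neurosteroid genes had 1 of 23 higher (1, 1, 1, 1, 0 and 0) and 4 lower (2, 4, 2, 4, 1 and 3); HSD17B3, for a testosterone-forming enzyme, was at 12.9, 10.4 and 14.6 CPM against 2.68, 5.67 and 2.52 CPM, and at 11.2, 8.83 and 7.41 CPM after 1.2 nM. The sources used here do not give the sex of the fish, and its part in HSD17B3 cannot be told apart from exposure. Of 42 hypothalamic neuropeptide genes 5 were lower (3, 6, 4, 4, 4 and 1), among them the enkephalin gene penka at 61.8, 68.4 and 70.4 CPM against 45.9, 39.4 and 48.6 CPM (log2 fold change -0.58 with SE 0.09, adjusted p = 0.0067).

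Clock genes had calls in both directions. Of 41 genes 11 were higher (6, 11, 9, 8, 10 and 5) and 3 lower (1, 3, 2, 3, 1 and 2). The transcriptional activator gene CLOCK (ENSDARG00000011703) went from 36.4, 41.4 and 33.6 CPM in DMSO to 51.9, 57.5 and 60.6 CPM in 0.3 nM brains (log2 fold change 0.61 with SE 0.10, adjusted p = 0.00718), and its partner gene bmal2 from 10.3, 11.7 and 9.08 CPM to 15.7, 16.9 and 16.2 CPM (log2 fold change 0.65 with SE 0.11, adjusted p = 0.00832). The CLOCK repressor gene ciarta went from 25.3, 23.6 and 26.9 CPM to 15.5, 15.2 and 17.9 CPM (log2 fold change -0.64 with SE 0.10, adjusted p = 0.00746). The groups were apart in all 3. The nuclear receptor gene rorcb and the clock output gene nfil3-5 rose as well, by 1.41 and 1.10 in 1 fit of all 24 libraries. In that fit dbpa and NR1D2 were at -0.39 and -0.31. In the fits of brain libraries alone, both calls were lost without DMSO replicate 1 or 0.3 nM replicate 2. That of NR1D2 was also lost without DMSO replicate 2 or 3 or 0.3 nM replicate 3. The other gene written CLOCK (ENSDARG00000003631) hardly moved, at 0.08 in the fit of all 24 libraries. The repressor genes CRY1 (0.05, adjusted p = 0.715) and BHLHE40 (0.08, 0.576) were not called. Clock transcripts cycle over the day, and the hour at which each brain was taken, which the labels do not give, cannot be told apart from exposure.

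No immediate early gene was called by edgeR among 30 tested, 5 were higher and 0 lower at an unadjusted p under 0.05, and DESeq2 called 0 higher and 0 lower (edgeR called 0 in 4 of the 6 fits with 1 library left out, and 1 without DMSO replicate 2 or without 0.3 nM replicate 1). NPAS4, which neuronal activity induces within minutes to hours, stood at 17.2, 15.3 and 122.8 CPM in DMSO and 25.6, 122 and 145 CPM in 0.3 nM brains (log2 fold change 0.91 with SE 1.13, adjusted p = 0.65). One DMSO brain and 2 of the 0.3 nM brains were high, so that the spread lay within the groups.

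No AHR-induced gene was called higher in the 0.3 nM adult brains. Of 11 in the list 7 had enough reads for a test, 0 were higher and 1 lower, 0 were higher and 3 lower at an unadjusted p under 0.05, DESeq2 called 0 higher and 1 lower, and the median was -1.08 (-0.28 without DMSO replicate 3). CYP1A1 had 11, 19 and 51 reads in DMSO and 9, 5 and 7 reads in 0.3 nM brains, or 0.499, 0.986 and 2.40 CPM against 0.575, 0.359 and 0.519 CPM (log2 fold change -1.40 with SE 0.56, adjusted p = 0.118). DMSO replicate 3 was the highest library for CYP1A1 and for cyp1c1, and the other DMSO brains overlapped the exposed ones. The values of cyp1c1 were 1.22, 1.40 and 4.23 CPM against 1.60, 0.718 and 0.890 CPM (adjusted p = 0.22) and those of cyp1c2 1.31, 0.779 and 1.51 CPM against 0.639, 0.287 and 0.519 CPM (0.0882), the last with separate groups. The more abundant CYP1B1 (-0.17, adjusted p = 0.39), the ADP-ribosyltransferase gene tiparp (0.17, 0.314) and foxq1b (-0.01, 0.984) were not called.

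The one fall was NQO1, for a quinone reductase, from 6.03, 8.20 and 4.94 CPM in DMSO to 3.45, 3.02 and 2.45 CPM in 0.3 nM brains (log2 fold change -1.10 with SE 0.26, adjusted p = 0.0213), and it was lost without 0.3 nM replicate 2 or 3. FOXQ1, ahrra, ahrrb and wfikkn1 had at most 10, 3, 7 and 2 reads in any brain library and could not be tested. Among 11 receptors and partners of the AHR complex 3 were lower (4, 2, 2, 4, 2 and 2) and 0 higher (0, 2, 0, 2, 0 and 0). Those called in all 7 fits were HSP90AA1, given above, and the co-chaperone gene PTGES3, at 108, 108 and 116 CPM against 84.8, 82.7 and 61.2 CPM (log2 fold change -0.53 with SE 0.11, adjusted p = 0.0136). ARNT2, for the brain partner of the receptor, was not called (0.24, adjusted p = 0.0753).

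Lists of other tissues were called to unlike degrees. Meninges and fibroblasts had 7 of 32 lower (0, 13, 3, 5, 1 and 0) and cartilage and bone 6 of 35 (3, 13, 3, 4, 0 and 0), and DMSO replicate 3 was the highest library in both lists; DESeq2 called 15 and 14 lower. Skeletal muscle had 1 higher and 1 lower of 42, and the lower count was 0 in 5 of the 6 fits with 1 library left out (DESeq2 called 9 lower). Pituitary hormones, photoreceptors and the pineal gland had no call by edgeR. At an unadjusted p under 0.05, 1 pituitary gene was higher and 2 lower and 0 of the others, and DESeq2 called 2 pituitary genes lower and 0 of the others. The inner ear had 1 lower of 12 (0, 1, 1, 0, 0 and 0), epidermis 3 of 19 (0, 4, 0, 3, 0 and 2) and liver 4 of 14 (1, 3, 2, 3, 1 and 1). DESeq2 called 7 epidermis genes lower. The part of other tissue in the falls of the mitochondrial, chaperone and glial lists was not tested.

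The brains of fish exposed to 1.2 nM share the DMSO controls, so the 2 doses were compared with each other. That test called 19 of 19548 genes (0.0972%), 10 higher and 9 lower at 1.2 nM, with 1885 at an unadjusted p under 0.05. Between 2 and 30 were called with 1 exposed library left out (4 without 0.3 nM replicate 3, 8 without 0.3 nM replicate 1, 30 without 0.3 nM replicate 2, and 2 and 4 without 1.2 nM replicates 2 and 3). The genes dap1b (log2 difference -1.54, SE 0.12, adjusted p = 0.00074) and ciarta (-1.18, SE 0.11, 0.00281) were lower at 1.2 nM in all 7 fits of this comparison. For ciarta the levels were 25.3, 23.6 and 26.9 CPM in DMSO, 15.5, 15.2 and 17.9 CPM at 0.3 nM and 7.74, 7.01 and 6.65 CPM at 1.2 nM, a step down at each dose with no overlap.

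The other genes named in this dose comparison changed less stably. The globin gene HBE1 (ENSDARG00000069734) was higher at 1.2 nM (5.44, adjusted p = 0.0154; lost without 0.3 nM replicate 1 or 3 or 1.2 nM replicate 2), as was SPART (0.99, 0.0154; lost without 0.3 nM replicate 1 or 3 or 1.2 nM replicate 2 or 3). The clock repressor gene PER1 (ENSDARG00000012499) was at 129, 136.9 and 114 CPM in DMSO, 149, 145 and 154 CPM at 0.3 nM and 84.8, 60.6 and 68.05 CPM at 1.2 nM (-1.07, 0.0106; lost without 0.3 nM replicate 3 or 1.2 nM replicate 2 or 3). For this PER1 gene the 0.3 nM brains lay above the DMSO range and the 1.2 nM brains below it. Its rise at 0.3 nM against DMSO was not called in any edgeR fit with 1 library left out (adjusted p from 0.14 to 0.424). In the fit of all 24 libraries that rise was 0.22, and the other gene written PER1 (ENSDARG00000056885) was at -0.31. The ubiquitin ligase family gene lonrf1 was lower at 1.2 nM (-0.84, 0.0154; lost without 0.3 nM replicate 1 or 3 or 1.2 nM replicate 2 or 3). Against DMSO, the 1.2 nM brains had a median of -0.03 over all genes tested. The median was -0.32 in complex I, -0.16 in heat shock genes, 0.35 in protocadherins and 0.24 in chromatin regulators. In these lists the 0.3 nM medians were larger in size, at -0.49, -0.45, 0.54 and 0.26. Other lists had larger medians at 1.2 nM, with -0.54 against -0.39 in cytosolic ribosomal proteins and -0.63 against -0.40 in microglia and macrophages. Postsynaptic scaffolds had 0.38 against 0.36, and presynaptic genes 0.24 against 0.16. Differences between doses in list medians were not tested.

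The 0.3 nM effect in adult brain was then tested against the 0.3 nM effect in whole larvae at 5 dpf and in whole embryos at 48 hpf, in 1 fit of all 24 libraries. Brain is a single organ and the younger samples are whole animals with RNA purified by another method, so tissue, age and purification cannot be told apart here. The effect differed from larvae for 1288 of 22545 genes (5.71%), 606 higher and 682 lower in brain, and from embryos for 404 (1.79%), 113 higher and 291 lower. The first count was 2135, 628, 1937, 619 and 772 without brain DMSO replicates 2 and 3 and brain 0.3 nM replicates 1, 2 and 3, and 656, 659, 540 and 809 without larval DMSO replicates 1 and 2 and larval 0.3 nM replicates 1 and 2. The second was 976, 153, 709, 165 and 122 without the same brain libraries, and 262, 101, 97 and 175 without embryo DMSO replicates 1 and 2 and embryo 0.3 nM replicates 1 and 3. Every other library left out moved the counts by under 1.5 times.

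The effect differed between brain and embryos for 3 of the 4 CYP1 genes tested. The 0.3 nM log2 fold change of cyp1c2 was 1.32 in embryos and -1.32 in brain, a difference of -2.64 (SE 0.47, adjusted p = 0.00766) that was called in all 12 fits with 1 library left out. CYP1A1 had 3.65 in embryos and -1.42 in brain, a difference of -5.07 (SE 0.99, adjusted p = 0.0224), and cyp1c1 2.20 and -1.09, a difference of -3.29 (SE 0.70, 0.0299). Calls for the last 2 were lost without brain DMSO replicate 3, brain 0.3 nM replicate 2 or 3, embryo DMSO replicate 2 or embryo 0.3 nM replicate 1, and that of cyp1c1 also without embryo 0.3 nM replicate 3. The fourth, CYP1B1, had 0.78 and -0.20, and its difference of -0.97 did not pass (adjusted p = 0.131). Within embryos the effect was called for CYP1A1 (adjusted p = 0.00289) and not for cyp1c1 (0.0563), cyp1c2 (0.117) or CYP1B1 (1). Against larvae, the CYP1A1 difference of -3.24 did not pass (adjusted p = 0.0679).

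For 6 genes that moved in brain at 0.3 nM, the effect is given beside that of the younger stage it was tested against. The nuclear receptor gene rorcb had a log2 fold change of 1.41 in brain and -0.13 in larvae, and pcdh11 one of 0.73 in brain and -0.19 in larvae. SMOX had -0.82 in brain and 0.04 in larvae. The sulfate donor synthase gene PAPSS2, at 23.4, 22.9 and 27.5 CPM in DMSO and 13.5, 13.9 and 15.0 CPM in 0.3 nM brains, had -0.82 in brain and 0.08 in embryos. The Ras-family GTPase gene RIT1, at 30.3, 34.5 and 31.9 CPM against 18.7, 19.6 and 17.7 CPM, had -0.81 in brain and 0.17 in embryos, and GJA1 had -0.74 in brain and 0.04 in embryos. Each of these 6 differences was called in all 12 fits with 1 library left out.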

How the data were processed

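RNA was measured by sequencing in 24 libraries, 3 in each of 8 groups; the 9 adult brain libraries enter the brain fit. Per the labels' protocols, ribosomal RNA was depleted from total RNA, and strand-specific libraries were sequenced as single 50-base reads; brain RNA was purified by another method than that of embryos and larvae. The authors deposited 1 table per library of whole-number read counts for each Ensembl gene, made with FastQC, STAR, HTSeq and the GRCz10 build, per the submitters' processing notes; the sources used here do not give versions, the annotation or the order of steps. The files' names give reverse-strand counting in union mode, which leaves out a read matching more than 1 gene. Symbols came from the names tables, which write many zebrafish genes by the mammalian symbol in capitals; gene length, base composition and sequences were not analysed here. The count test was edgeR 4.0.16 under R 4.3.3 (filterByExpr, TMM, robust quasi-likelihood fit, Benjamini-Hochberg adjustment over all genes, call at 0.05). All 9 brain libraries shared 1 estimate of the spread, with a biological coefficient of variation of 0.156. Differences between ages used 1 fit of all 24 libraries. The SE is the size of the log2 fold change over the square root of F. Scripts were tested on simulated data. Groups came from the labels. Within the DMSO brain group and the 0.3 nM brain group, every pair of libraries differed by more than counting noise (lowest chi-square per degree of freedom 9.04). Deviations of same-numbered DMSO and 0.3 nM brains from their group means correlated at 0.0273 to 0.0845. The labels state no pairing, and numbers were not taken to pair libraries. Alternatives were other scalings, no filter on low counts, no robust fitting, other sets of libraries, a replicate block, DESeq2 1.42.0, thinning to 13097392 reads, a threshold of 0.01 and leaving out each library. The members and gene lists were chosen with earlier results of these data known, and the 5 lists of Hox, forebrain, midbrain and cerebellar genes after values were seen. Genes named are all AHR-induced genes; the 14 largest changes per direction called in all 7 fits (mean log2 CPM 1 or more, no clone names, separate groups); per list up to 4 called members per direction by adjusted p and up to 2 uncalled ones by level; and up to 6 genes per other comparison. Genes outside this rule (the marker genes ckma and gh1, and some in the closing section) were chosen after their values were seen.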

Additional observations from a re-analysis of the deposited data

Results flagged for a closer look

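The 0.3 nM effect differed between adult brain and whole larvae, or between adult brain and whole embryos, for the genes below by a test of the difference itself (edgeR quasi-likelihood test, Benjamini-Hochberg adjustment over 22545 genes). Against larvae, the brain effect on the log2 scale was larger by 1.54 (SE 0.18, adjusted p = 0.000294) for rorcb, by 1.55 (SE 0.21, adjusted p = 0.000731) for NYAP2 and by 0.92 (SE 0.13, adjusted p = 0.00104) for pcdh11. It was more negative for mst1ra, with a difference of -2.14 (SE 0.28, adjusted p = 0.000607), for IVNS1ABP with -1.37 (SE 0.17, adjusted p = 0.000294), and for SMOX with -0.86 (SE 0.11, adjusted p = 0.000562). In each of these 6 genes the 3 exposed brains lay on 1 side of the 3 DMSO brains, as in 2660 of the 2683 genes called in brain.

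Against embryos, the difference was -2.21 (SE 0.29, adjusted p = 0.000799) for mst1ra, -0.90 (SE 0.12, adjusted p = 0.000799) for PAPSS2, -0.98 (SE 0.14, adjusted p = 0.00204) for RIT1, -0.78 (SE 0.11, adjusted p = 0.00204) for GJA1 and -1.12 (SE 0.17, adjusted p = 0.00244) for IVNS1ABP, with the exposed brains below the DMSO brains in each. HOXC8, a posterior patterning gene, differed by -3.38 (SE 0.50, adjusted p = 0.00204); it had 21, 21 and 18 reads in DMSO brains, 0, 2 and 2 in 0.3 nM brains and 10, 18 and 7 in 1.2 nM brains. The 12 differences were called in all 12 fits that left 1 library out. The Hox genes of groups 5 to 13 summed to 1.28, 47.3 and 66.1 CPM in the 0.3 nM brains and 68.6, 92.9 and 71.7 CPM in the DMSO brains, and the part of posterior tissue in the HOXC8 result was not tested. With 3 libraries per group, single libraries were not tested for standing apart.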

How the results depend on the processing

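For 0.3 nM against DMSO in brain, 2683 genes were called. The count became 4120 in 1 fit of all 24 libraries (1865 higher, 2255 lower), 1310 with only the 6 compared libraries and 456 at an adjusted p under 0.01, and ranged from 960 to 3057 with 1 library left out. It stayed within 1.5 times of the reported count with other scalings (2686 to 2881), DESeq2 (3302), no filter (2420), no robust fitting (2642) and thinning (2630). Of 224 named genes called, none turned direction in any alternative; 2 to 12 lost their call under scaling, filter, robust, DESeq2, thinning or 24-library alternatives, 48 with only the 6 compared libraries, 116 at 0.01, and 17 to 86 with 1 library left out. The comparison of 1.2 with 0.3 nM (19 genes) gave 29 with no filter, 11 with no robust fitting, 176 in the fit of all 24 libraries, 160 with DESeq2 and 2 to 30 with 1 library left out. The difference from larvae (1288) ranged from 540 to 2135 and that from embryos (404) from 97 to 976 with 1 library left out. The cause was not tested. With a replicate block the counts were 2007, 4, 1905 and 719 in the order of these 4 comparisons, and 24 named genes lost their call. Same-numbered DMSO and 0.3 nM brain libraries correlated at 0.0273 to 0.0845, and differently numbered ones at -0.124 to 0.0632. So few libraries, of brain only, cannot show whether libraries of the same number shared a clutch, tank or batch. Alternatives on coding length were not run, since no length table was at hand. Depth limits the lowest genes: CYP1A1 had 5 to 51 reads in the 6 compared brains.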

Other observations

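Genes of brain regions, in lists made after values were seen, were higher where called. Forebrain transcription factors had 3 of 30 higher (4, 3, 2, 3, 1 and 2 with DMSO replicates 1, 2 and 3 and then 0.3 nM replicates 1, 2 and 3 left out), midbrain transcription factors 6 of 36 (3, 7, 3, 6, 3 and 2) and cerebellar genes 6 of 24 (6, 5, 5, 6, 2 and 2), against 7.82% of all genes. The forebrain share, 10%, was near the 7.82% of all genes, and the midbrain and cerebellar shares were 16.7% and 25%. None of the genes in these lists was lower with all libraries. By median level, the forebrain genes were raised in 0.3 nM replicate 2 alone, with median log2 levels against the DMSO mean of -0.09, 0.74 and -0.01 at 0.3 nM and 0.07, 0.05 and -0.17 in DMSO. By summed level all exposed brains were above the DMSO brains, at 448, 632 and 464 CPM against 384, 432 and 351 CPM. The cortical and hippocampal patterning gene LHX2 of mammals was at 21.6, 25.2 and 19.9 CPM in DMSO and 36.1, 31.5 and 31.7 CPM in 0.3 nM brains (log2 fold change 0.58 with SE 0.10, adjusted p = 0.00929, edgeR quasi-likelihood test). The midbrain factor gene GATA3 was at 33.1, 38.1 and 26.7 CPM against 55.8, 45.8 and 58.5 CPM (log2 fold change 0.71 with SE 0.13, adjusted p = 0.00886). CACNA1G, for a T-type calcium channel of the cerebellum, was at 63.6, 69.6 and 51.2 CPM against 92.2, 119 and 102 CPM (log2 fold change 0.76 with SE 0.13, adjusted p = 0.00857), and the Purkinje cell factor gene RORA at 177, 186 and 149 CPM against 250.3, 225 and 254 CPM (log2 fold change 0.51 with SE 0.10, adjusted p = 0.0136). The groups were apart in these 4 genes, each called in all 7 fits.

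At the posterior end, Hox genes of groups 5 to 13 had 2 of 12 lower (1, 1, 2, 3, 1 and 1), against 5.9% of all genes, and those of groups 1 to 4 none of 12. The 2 were HOXC8 and HOXB9, with at most 21 reads in any brain. DESeq2 called 0 lower in either list. HOXB5 (ENSDARG00000013057) stood at 19.3, 26.2 and 18.3 CPM in DMSO and 0.511, 16.3 and 22.5 CPM at 0.3 nM, with replicate 1 alone near 0. In that replicate DBH, for noradrenaline synthesis, was at 1.34 CPM (4.31 to 7.27 in the other 5 brains) and the urotensin-related gene urp1 at 0.256 CPM (3.16 to 6.54). HOXB9 had 14, 12 and 8 reads in DMSO brains and 0 in each 0.3 nM brain, at least 7.82-fold lower with a floor of 3 counts over the group. That floor pools the 0.3 nM libraries and makes no allowance for the spread between brains.

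Of all genes, 3 had at least 10 reads in each DMSO brain and 0 in every 0.3 nM brain, and none had the reverse. Their identifiers carry no symbol in the names tables. One of them had 11, 14 and 35 reads in DMSO brains and 0, 10 and 4 in 1.2 nM brains, and was at least 13.7-fold lower at 0.3 nM by the same floor. ENSDARG00000098735 had 27, 48 and 29 reads in DMSO brains and 38, 27 and 19 in 1.2 nM brains, and was at least 24.3-fold lower at 0.3 nM by the same floor. ENSDARG00000102576 had 18, 33 and 23 and 36, 12 and 20 reads, and was at least 17.3-fold lower. They were chosen after their values were seen.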
